A study of Mus musculus with 2 samples.

Results

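Ccl21a-high medullary thymic epithelial cells (mTECs) without contractile genes were examined in single-cell RNA sequencing of mouse mTECs. A cell belonged to this population when Ccl21a, which codes for the chemokine that attracts Ccr7-bearing thymocytes into the thymic medulla, reached 50 of every 10000 of its unique molecular identifiers (UMIs, the tags that count RNA molecules), and when Tagln, Acta2, Fst and Gas1 together stayed under 5 per 10000. Cells were left out where Col3a1, Prrx1, Dcn and Bgn summed to 5 or more per 10000, where Mki67, Top2a, Birc5, Ube2c and Cenpf summed to 6 or more, or where Trpm5, Dclk1 and Alox5ap summed to 10 or more. The rule gave 607 cells of the 13307 that passed the quality limits (500 or more genes, 1000 or more UMIs and no more than 15% of UMIs from mitochondrial genes), out of 18399 deposited barcodes. The cells were thus chosen by measured values, those of the 17 genes in the rule, and the levels of these genes are description and support nothing.

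The study asked what conditional loss of Ikaros does to mTECs. Ikaros is the zinc-finger transcription factor encoded by Ikzf1. Cells sorted as EPCAM-positive and Ly51-negative were profiled with the 10x Genomics 3' kit in 2 libraries, 1 from a genotype labelled Foxn1-Cre(+) Ikaros+/fl and 1 from a genotype labelled Foxn1-Cre(+) Ikarosfl/fl. Both libraries therefore come from mice with the Foxn1-Cre driver, which recombines floxed alleles in thymic epithelium, and both carry at least 1 floxed Ikaros allele. The labels give no age, sex, number of animals or deleted exons. The submitters' names for the matrices put the genotypes the other way round from the labels, so each direction below is between libraries as labelled. With 1 library per genotype no difference between them has a replicate check and none was tested. Confidence intervals at 95% (exact Poisson for levels, exact Clopper-Pearson for shares) cover counting error only.

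In the mouse medulla, Ccl21a-producing mTECs that carry the basal keratins Krt5 and Krt14 are generally placed before, or beside, the Aire stage. Aire-expressing cells transcribe tissue-restricted antigens, and their descendants include mimetic cells that resemble peripheral cell types. Lifr, the receptor for leukaemia inhibitory factor, S1pr3, a receptor for sphingosine 1-phosphate, and Ifi202b, an interferon-inducible gene of the p200 family, complete the 6 markers given for the population.

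Depth differed between the libraries. The labelled +/fl library held 85260592 UMIs and the labelled fl/fl library 99871505, and the 246 and 361 cells of the population contributed 3564122 and 2983970 of these. Median UMIs per cell were 11834 in the population of the library labelled +/fl and 6921 in that of the library labelled fl/fl, against 11057 and 8542 over all cells that passed. At those medians the contractile cut-off of 5 per 10000 corresponds to 5.92 and 3.46 UMIs. Of the cells that passed, 11 had barcodes found in both libraries and 0 of them belonged to the population. Sex-linked genes separated the libraries: in the population Xist was at 1123 CPM (counts per 1000000 UMIs, summed over cells) in the library labelled +/fl and at 1.34 in the library labelled fl/fl, while Ddx3y was at 0 and 69.4. Genotype and sex therefore cannot be told apart in any comparison between the libraries.

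Ikzf1 (chr11:11685003-11772926, plus strand) was found at low levels in these cells. It stood at 35.6 CPM (interval 29.7 to 42.4, 127 UMIs) in the library labelled +/fl and at 17.8 CPM (interval 13.3 to 23.2, 53 UMIs) in the library labelled fl/fl, a ratio of 0.499 (interval 0.355 to 0.692). T-lineage cells in the same sort, identified by their T-cell genes and lack of Epcam, had 205.5 and 183.9 CPM. Because the 3' tags need not lie in the deleted exons, which the labels do not name, this ratio does not check the labels.

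The population made up a similar part of both libraries. It was 4.82% of cells that passed in the library labelled +/fl (246 of 5099, interval 4.25 to 5.45) and 4.40% in the library labelled fl/fl (361 of 8208, interval 3.97 to 4.86). Among Ccl21a-high cells alone its share was 21.2% (246 of 1161, interval 18.9 to 23.6) and 23.3% (361 of 1548, interval 21.2 to 25.5). In both denominators the intervals overlapped. The share of all cells was sensitive to tuft cells, a chemosensory type common in the library labelled +/fl. With tuft cells taken out of the total, the share was 7.64% of 3222 cells (interval 6.74 to 8.61) and 4.86% of 7424 cells (interval 4.38 to 5.38), and those intervals did not overlap. Most other Ccl21a-high cells carried the contractile genes (576 and 1014 cells). The rest, 339 and 173 cells, fell to the exclusion limits, of which the mesenchymal limit held 253 of 1161 Ccl21a-high cells labelled +/fl (21.8%) and 105 of 1548 labelled fl/fl (6.78%).

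**Figure D1:**
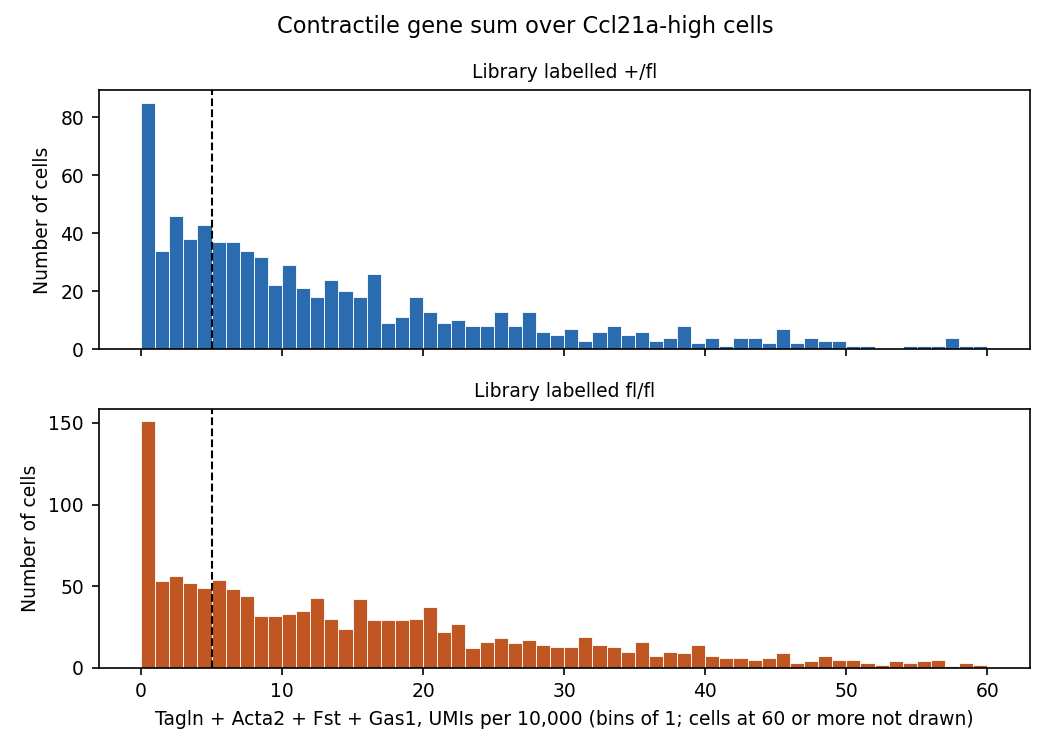
Number of Ccl21a-high cells (y axis) by the sum of Tagln, Acta2, Fst and Gas1 per 10000 UMIs (x axis, bins of 1), after the mesenchymal, cycling and tuft exclusions, for the 2 libraries. The dashed line marks the cut-off of 5. Counts run across it without a gap, and the 5 bins to its left hold the 246 and 361 cells of the population.

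No gap in the values sets the population apart. Just inside the contractile cut-off, at 4 to 5 per 10000, 43 and 49 cells had Mgp at 624.5 and 797 CPM. Just outside, at 5 to 6, 37 and 54 cells had Mgp at 784 and 1457 CPM. Krt14 was at 1551 and 959 CPM inside and 1383 and 1044 CPM outside. Cells just inside the Ccl21a cut-off (50 to 60 per 10000, 28 and 46 cells) had Krt5 at 1094 and 683 CPM, and those just outside (40 to 50, 40 and 49 cells) at 1032 and 467 CPM. In both libraries some cells had no UMI of any of the 4 contractile genes, 63 cells (25.6%, interval 20.3 to 31.5) in the library labelled +/fl and 130 cells (36.0%, interval 31.0 to 41.2) in the library labelled fl/fl, whose cells were shallower.

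The 5 markers that the rule did not use were above their levels in cells under the Ccl21a limit and in T-lineage cells, as the label has it. Ccl21a (chr4:42772860-42773993, minus strand), which the rule used, was at 11612 and 12046 CPM, against 605 and 478 CPM in cells under the limit and 120 and 172 CPM in T-lineage cells. Its near-identical copies in the mouse genome make the assignment of its reads uncertain. Krt5 (chr15:101707070-101712898, minus strand) was at 2185 CPM (interval 2137 to 2234) in the library labelled +/fl and 1318 CPM (interval 1277 to 1360) in the library labelled fl/fl, against 249 and 224 CPM under the limit. Krt14 (chr11:100203162-100207548, minus strand) was at 1150 CPM (interval 1115 to 1186) and 804 CPM (interval 772 to 836.5), against 341 and 286 CPM. Both basal keratins were thus higher in the population of the library labelled +/fl.

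The receptors and the p200 gene had nearly the same level in both libraries. Lifr (chr15:7090614-7197489, plus strand) was at 295 CPM (interval 277 to 313) and 289.5 CPM (interval 271 to 309.5), against 60.7 and 30.04 CPM in cells under the limit. Ifi202b (chr1:173962568-173982744, minus strand) was at 346 CPM in both, with intervals of 327 to 366 and 325 to 368, against 39.0 and 37.7 CPM. S1pr3 (chr13:51408639-51422797, plus strand) was at 99.6 CPM (interval 89.5 to 110.5) and 92.5 CPM (interval 81.9 to 104), against 25.9 and 9.73 CPM. For these 3 genes the intervals of the libraries overlapped. All 6 markers were higher still in the contractile Ccl21a-high cells, by 1.53-fold and 1.36-fold for Ccl21a, 1.31-fold and 1.18-fold for Krt5, 1.80-fold and 1.84-fold for Krt14, 1.36-fold and 1.59-fold for Lifr, 1.33-fold and 1.38-fold for Ifi202b, and 1.20-fold and 1.30-fold for S1pr3.

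**Figure D2:**
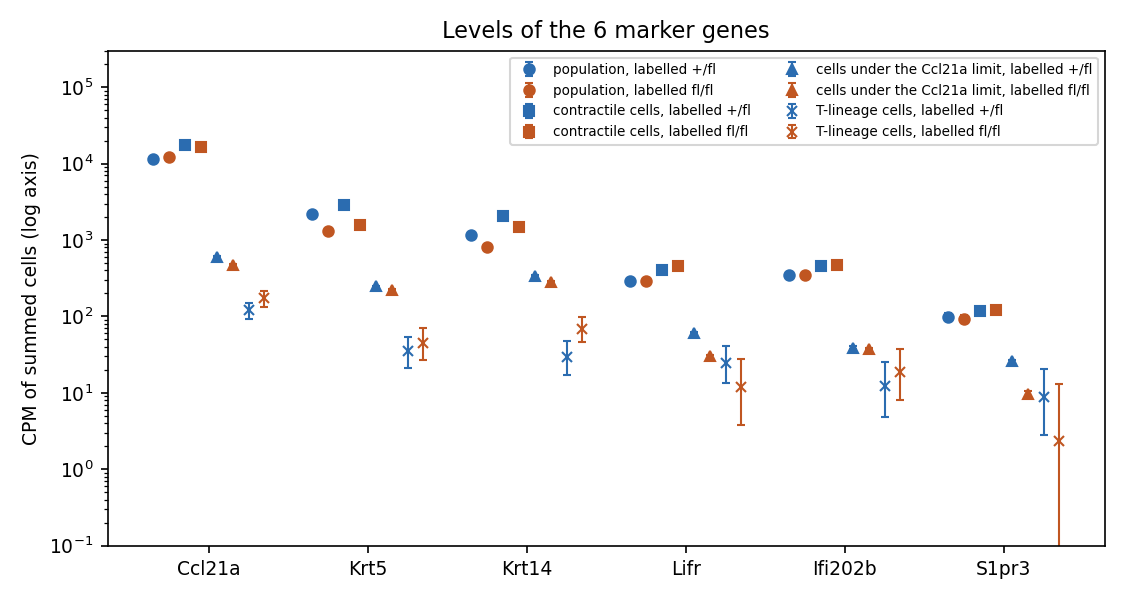
Levels of the 6 markers (y axis, CPM of summed cells, log axis) in the population, contractile Ccl21a-high cells, cells under the Ccl21a limit and T-lineage cells of each library, with exact Poisson intervals as bars. The population (circles) sits below the contractile cells (squares) and above the other 2 classes for each gene.

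Shares of cells with a UMI were set beside those at equal depth. Unthinned, Krt14 was seen in 91.9% and 77.8% of cells and Lifr in 87.8% and 72.0%. With every cell thinned to 2000 UMIs (6 and 27 shallower cells of the population were dropped), Krt14 was seen in 72.9% and 55.4%, and Lifr in 48.8% and 42.8%. The Krt14 share thus stayed lower in the library labelled fl/fl at equal depth. Among T-lineage cells, which should lack both genes, the thinned shares were 11.9% and 7.5% for Krt14 and 1.69% and 2.5% for Lifr, at medians of 2964 and 2960 UMIs before thinning. In the contractile cells the thinned shares were 84.2% and 79.0% for Krt14 and 54.7% and 60.9% for Lifr.

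The 4 genes that split the Ccl21a-high cells differed by construction. Tagln, an actin-binding smooth-muscle protein, was at 55.6 CPM in the population of each library and at 1017 and 1218 CPM in contractile cells. Acta2, smooth-muscle actin, was at 16.3 and 19.8 CPM against 436 and 520 CPM. Fst, the activin antagonist follistatin, was at 28.6 and 44.6 against 185 and 280 CPM, and Gas1, a growth-arrest membrane protein, at 109 and 71.4 against 467 and 430 CPM. Myl9, a myosin light chain that the rule did not use, stood at 18.2 and 17.4 CPM in the population and 95.3 and 100.6 CPM in contractile cells.

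Over all genes, contractile and non-contractile Ccl21a-high cells were set side by side within each library, with no test because the rule split these same cells. A gene counted as past the fold when it differed by 1.5-fold or more the same way in both libraries. Of 6913 genes measured (at least 20 CPM in 1 of the groups and 50 UMIs in all), 300 were higher in the population (4.34%) and 120 lower (1.74%). Median log2 ratios over all genes were 0.03 and 0.05.

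Mgp, Apoe and Sparc were among the genes on the lower side. Mgp, the calcification inhibitor matrix Gla protein, was at 340 CPM (interval 321.5 to 360) and 444 CPM (interval 420 to 468) in the population and at 1197 and 1504 CPM in contractile cells, 3.52-fold and 3.39-fold lower. Apoe, the lipid carrier apolipoprotein E, was at 444 and 779 CPM against 1436 and 2154 CPM. Sparc, a collagen-binding matrix protein, was at 34.8 and 47.9 CPM against 107 and 133 CPM, 3.07-fold and 2.78-fold lower. Each of these 3 genes was lower in the population in both libraries. Of 19 genes of basal adhesion and basement membrane 2 were lower, Sparc and Bcam, and 0 higher. Also on the lower side were Igfbp4, an insulin-like growth factor binding protein (62.6 and 112 CPM against 196.5 and 272.5), Gpx3, a secreted glutathione peroxidase (82.5 and 170 against 203 and 381), the chemokine Cxcl14 (23.6 and 38.2 against 64.8 and 107), Igfbp2, Cpne8, Scx, Ptprz1 and Rasl11a.

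Of 25 contractile and cytoskeletal genes measured, 8 were lower past the fold in both libraries and 0 higher, with medians of -0.49 and -0.53. The 8 were the 4 rule genes, Myl9, the actin-binding genes Cnn2 and Flna, and Lmod1. Of 16 genes of the YAP and mechanical response, 4 were lower and 0 higher (Cyr61, Ajuba, F3 and Fhl2; medians -0.37 and -0.46), with Cyr61 at 272 and 343 CPM against 516 and 682.5. Among 21 BMP and TGF-beta genes 4 were lower and 1 higher (medians -0.46 and -0.45). The lower ones were Fst, which the rule used, Tgfbi (63.1 and 74.1 CPM against 136 and 166), Id1 (295 and 342.5 against 585 and 542) and Id3 (542 and 471 against 918 and 786), the last 2 being inhibitors of basic helix-loop-helix factors that BMP signalling induces. Grem1, a secreted BMP antagonist, was the higher one.

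The claudins Cldn3, Cldn4 and Cldn7 were on the higher side. Cldn3, a tight-junction claudin, was at 73.5 CPM (interval 64.9 to 83.0) and 108 CPM (interval 96.4 to 120) in the population and at 25.1 and 36.5 CPM in contractile cells, 2.93-fold and 2.96-fold higher. Cldn7 was at 121.5 and 125 CPM against 43.0 and 54.2 CPM, and Cldn4 was at 43.8 and 71.0 CPM against 20.6 and 34.4 CPM. Insm1, a zinc-finger factor of neuroendocrine cells, was at 50.8 and 75.7 CPM against 19.0 and 26.6 CPM. Fxyd2, a regulator of the sodium pump, was at 556 and 254 CPM against 191 and 95.5 CPM. These genes were higher in the population of both libraries, but their ratios depended on the 81 cells of 1 cluster, led by Reg3g and described further on as cluster 4, and those of Cldn3 and Cldn7 labelled fl/fl turned without it. Without that cluster the log2 ratios to contractile cells, labelled +/fl and then fl/fl, were 1.07 and -0.64 for Cldn3, 1.23 and -0.74 for Cldn7, 0.75 and 0.44 for Cldn4, 0.88 and 0.02 for Insm1, and 1.17 and 0.60 for Fxyd2.

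Among 20 epithelial junction genes 4 were higher (Cldn3, Cldn4, Cldn7 and the connexin Gjb2) and 2 lower (Cdh3 and Dsc3, adhesion molecules of cadherin type), with medians of -0.08 and 0.09, and without cluster 4 none of these 20 was past the fold in both libraries, in either direction. Of 7 late mTEC regulators 1 was higher past the fold, Insm1, and the medians were 0.48 and 0.67 (0.38 and 0.27 for the same genes without cluster 4, with 0 past the fold). Aire itself was at 72.7 and 96.8 CPM in the population, 45.3 and 70.3 CPM in contractile cells, and 171 and 361 CPM in cells under the Ccl21a limit. Fezf2, another driver of tissue-restricted antigens, was at 216 and 221.5 CPM against 171 and 139 CPM in contractile cells. Of 6 antigens listed as Aire-induced 5 were higher and 0 lower, with a median of 1.49 in each library. The milk protein gene Csn2, for example, was at 157 and 181 CPM against 25.8 and 84.6 CPM. These values also rested on cluster 4: without it the medians of the same 6 genes were 0.22 and -1.18, 1 of them was higher, and Csn2 was at 26.2 and 63.6 CPM.

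In the survival and death list and the S-phase and mitotic list, more genes were higher than lower past the fold. Ccnd2, the D-type cyclin of the G1 phase, was at 336 and 277.5 CPM against 163 and 139 CPM in contractile cells, 2.06-fold and 1.99-fold higher. Bok, a pro-apoptotic Bcl2 relative, was at 111 and 83.8 CPM against 55.8 and 43.1 CPM. Of 20 survival and death genes 4 were higher and 0 lower (Bok, Bik, Pmaip1 and Bcl2a1d), 3 of which code for pro-apoptotic proteins and the last for an anti-apoptotic one. Of 10 S-phase and mitotic genes 3 were higher and 0 lower (Ccnd2, the microtubule destabiliser Stmn1 and the cell-cycle inhibitor Cdkn2a). The rule had removed cells with high mitotic genes, and 0 of its 5 cycling genes passed the limits on low values here. The 3 genes named do not show that the cells divide more. Cd40, the receptor through which T cells activate mTECs, was at 52.5 and 51.6 CPM against 32.0 and 29.4 CPM, and the NF-kB regulators Tnip1 and Traf1 were the 2 of 22 NF-kB genes past the fold, both higher. Part of these calls rested on cluster 4. With it left out, 1 of the same 20 survival and death genes was higher, 2 of the 10 S-phase and mitotic genes and 0 of the 22 NF-kB genes, with 0 lower in each list.

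Other lists had few or no genes past the fold. Of 13 gp130 and cytokine receptor genes 0 were past it in either direction (medians 0.02 and 0.08). Il6st, the shared gp130 chain, was at 87.8 and 83.5 CPM against 115 and 135 CPM, Osmr, the oncostatin M receptor, at 98.2 and 99.5 CPM against 128 and 176 CPM, and the feedback inhibitor Socs3 at 752.5 and 666 CPM against 1027 and 915 CPM. All 3 were lower in the population than in the contractile cells, as was Lifr. Of 11 MHC class II genes, 19 MHC class I genes and 6 sphingosine phosphate genes 0 were past the fold. Of 21 thymic epithelial regulators 1 was (Elf3, higher), and Trp63, the basal epithelial factor p63, was at 97.6 and 146 CPM against 146 and 209 CPM.

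Several of the genes with the largest ratios rested on few cells. Klk1, a glandular kallikrein, was at 17.4 and 126 CPM against 0.890 and 11.9 CPM in contractile cells, but it was seen in 4 and 21 cells and 1 cell held 93.6% and 55.5% of its UMIs. Rptn, a cornified-envelope gene, was seen in 9 and 51 cells, with 86.5% and 26.0% of UMIs in 1 cell. Gast, the hormone gastrin, came from 3 and 4 cells, with 97.2% and 92.3% of UMIs in 1 cell. Calca, the calcitonin gene, was spread more widely, over 32 and 43 cells, at 127 and 72.0 CPM against 14.1 and 12.7 CPM. Its log2 ratios of 3.085 and 2.41 were as low as 0.46 and 0.60 under the alternatives described below. The neurotensin gene Nts came from 1 cell in the library labelled +/fl. The others named by the same rule of size were Ang4, Car8, Vmo1, Aoc1, 2210407C18Rik, Skint9 and Gsta2. Among genes seen in at least 30% of the population's cells in 1 of the libraries, a view chosen after the values were seen, Fabp4, Cd52, Fxyd2 and Laptm5 had the largest ratios on the higher side. In the library labelled +/fl, Fabp4 and Cd52 were seen in only 18.3% and 26.0% of cells. Without cluster 4 the log2 ratios of Cd52 turned in both libraries (-0.46 and -1.50). Those of Fabp4 (-1.26) and Laptm5 (-0.044) turned labelled fl/fl, and Fxyd2 stayed higher in both (1.17 and 0.60).

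**Figure D3:**
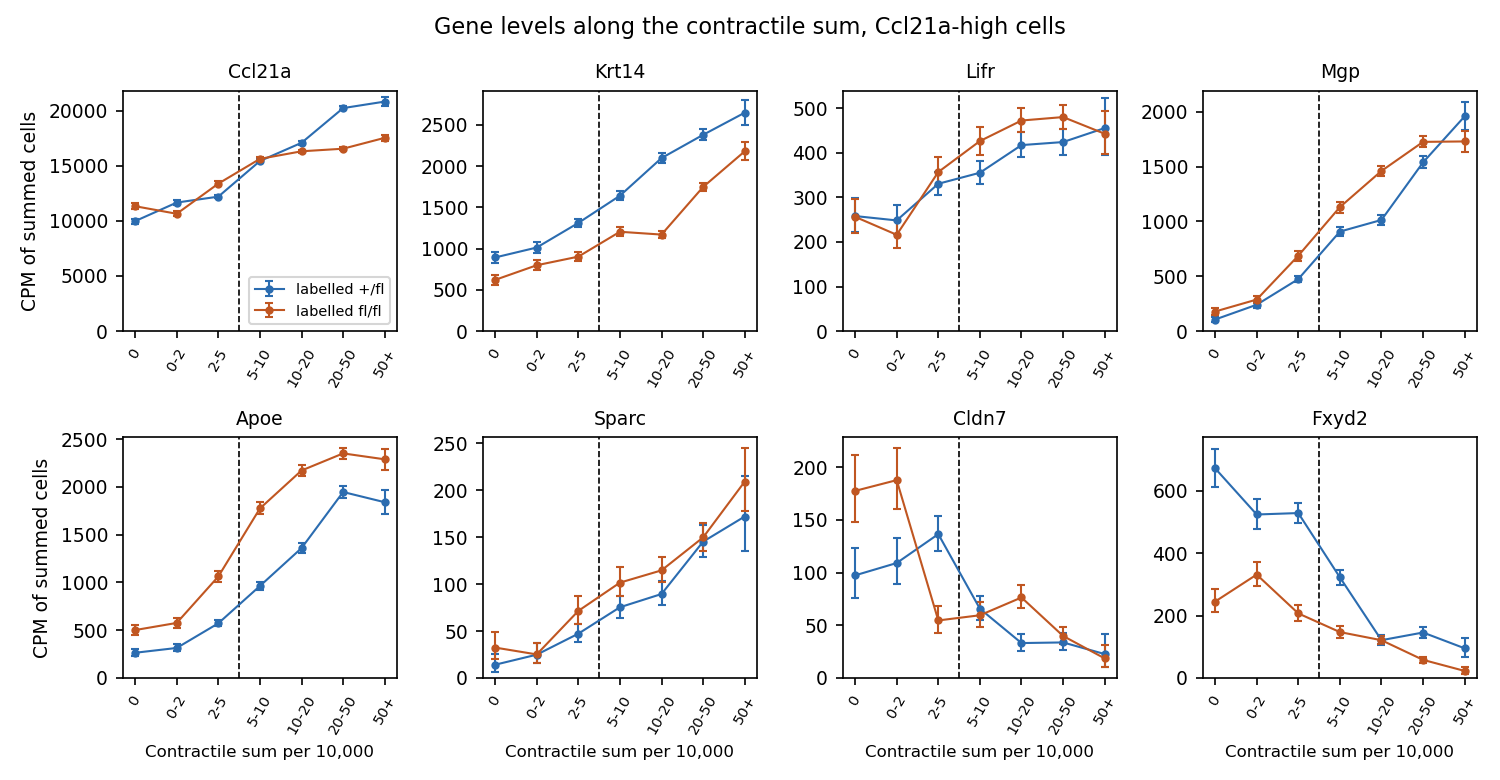
CPM of summed cells (y axis, from 0) for 8 genes in 7 bins of the contractile sum per 10000 UMIs (x axis) over Ccl21a-high cells of each library, with exact Poisson intervals. The dashed line is the cut-off of 5. Mgp ran from 106 to 1959 CPM and from 179 to 1730 CPM between the outer bins, while Fxyd2 ran from 673 to 95.1 CPM and from 245 to 22.5 CPM.

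Levels varied by degrees along the contractile sum. From cells with no contractile UMI to cells at 50 or more per 10000, Krt14 went from 893 to 2647 CPM in the library labelled +/fl and from 621 to 2179 CPM in the library labelled fl/fl. Ccl21a went from 9974 to 20812 CPM and from 11325 to 17526 CPM, Sparc from 14.1 to 172 CPM and from 32.4 to 209 CPM, and Trp63 from 103 to 199 CPM and from 145 to 225 CPM. Cldn7 went the other way, from 97.3 to 22.6 CPM and from 177 to 18.6 CPM, as did Insm1, from 116 to 2.27 CPM and from 107 to 15.9 CPM, and Fezf2, from 254 to 120 CPM and from 237 to 119 CPM. These bins include cluster 4, whose median contractile sum was 1.49 and 0 per 10000. Without it, Cldn7 in the population was at 102 and 32.0 CPM against 43.0 and 54.2 CPM in contractile cells. Insm1 was then at 35.8 and 27.1 CPM against 19.0 and 26.6 CPM. The bins differed in depth, with medians of 6975 and 4310 UMIs per cell in the zero bin and 15512 and 11338 in the next one.

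Within the population, Krt5, Lifr, Apoe, Mgp and Isg15 were higher in cells with more Ccl21a. From the lowest to the highest quartile of Ccl21a, with Ccl21a left out of the totals, Krt5 went from 1318 to 3079 CPM in the library labelled +/fl and from 753 to 1743 CPM in the library labelled fl/fl. Lifr went from 250 to 452 CPM and from 219 to 435 CPM, Apoe from 213 to 925 CPM and from 430 to 1397 CPM, Mgp from 249 to 736 CPM and from 228 to 996.5 CPM, and Isg15 from 337 to 984 CPM and from 276.5 to 682 CPM. Krt14 was highest in the quartile below the top, at 1497 and 1176 CPM, and Trp63 went from 88.1 to 80.5 CPM and from 139 to 184 CPM. Other genes were lower in the top quartile than in the lowest: Cldn3 went from 171 to 9.88 CPM and from 236.5 to 17.9 CPM, Cldn7 from 186 to 43.8 CPM and from 271.5 to 43.4 CPM, and Csn2 from 336 to 14.1 CPM and from 455 to 58.4 CPM. Aire went from 89.2 to 21.2 CPM and from 140 to 70.3 CPM, with its highest value in the library labelled +/fl, 107 CPM, in the quartile above the lowest. Krt8, a keratin of simple epithelia, varied less, from 1913 to 1484 CPM and from 1639 to 1549 CPM.

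Clustering divided the 607 cells into 4 clusters, which are described by their leading genes, were given no cell type name and were not compared in size between libraries. They were built from the variable genes of these same cells, so the gene levels and list counts below describe them and support nothing. Cluster 1 (193 cells, median 4904 UMIs) was led by Gpx3 (390 CPM against 65.6 in the other cells of the population), the chemokine Cxcl12 (117 against 23.7), Mgp (1056 against 246.5) and Apoe (1400 against 427), with Ctsl, a lysosomal cathepsin, at 3973 against 1335 CPM. Cluster 2 (193 cells, median 13281 UMIs) was led by the homeobox gene Nkx6-2 (106.5 against 10.9 CPM), Stmn1 (277 against 64.4), the intermediate filament gene Vim (887 against 259), Ccnd2 (495 against 155) and the Hes family gene Hes6 (420 against 138). In cluster 2, 6 of 10 S-phase and mitotic genes were past 1.5-fold above the other cells of the population, against 438 of all 6676 measured genes. That list also holds the G1 cyclin Ccnd2 and the cell-cycle inhibitor Cdkn2a.

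Cluster 3 (140 cells, median 7022 UMIs) was led by the keratinocyte genes Krtdap (1192 against 136 CPM) and Ly6d (1348 against 228) and by interferon-stimulated genes, among them Ifit3 (536 against 111), Isg15 (1496 against 359) and Ifit1 (596 against 151). In it 26 of 31 interferon-stimulated genes, 5 of 6 p200 genes and 23 of 29 dissociation and heat-shock genes were past 1.5-fold above the other cells, against 509 of all 6676 measured genes. Ifi202b was at 856 CPM there and 238 CPM elsewhere. Cluster 4 (81 cells, median 12538 UMIs) was led by Reg3g, an antibacterial lectin (4797 against 36.7 CPM), Fabp4, a fatty-acid carrier (2400 against 61.9), Cd52 (1589 against 51.7) and Csn2 (682 against 42.0). In cluster 4, 13 of 14 complement and mucosal defence genes, 6 of 6 listed Aire-induced antigens and 7 of 11 MHC class II genes were past the fold, against 1087 of 6676 measured genes. Its cells had the lowest median Ccl21a of the 4 clusters, 68.3 per 10000, and the others 123, 104 and 134.

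**Figure D4:**
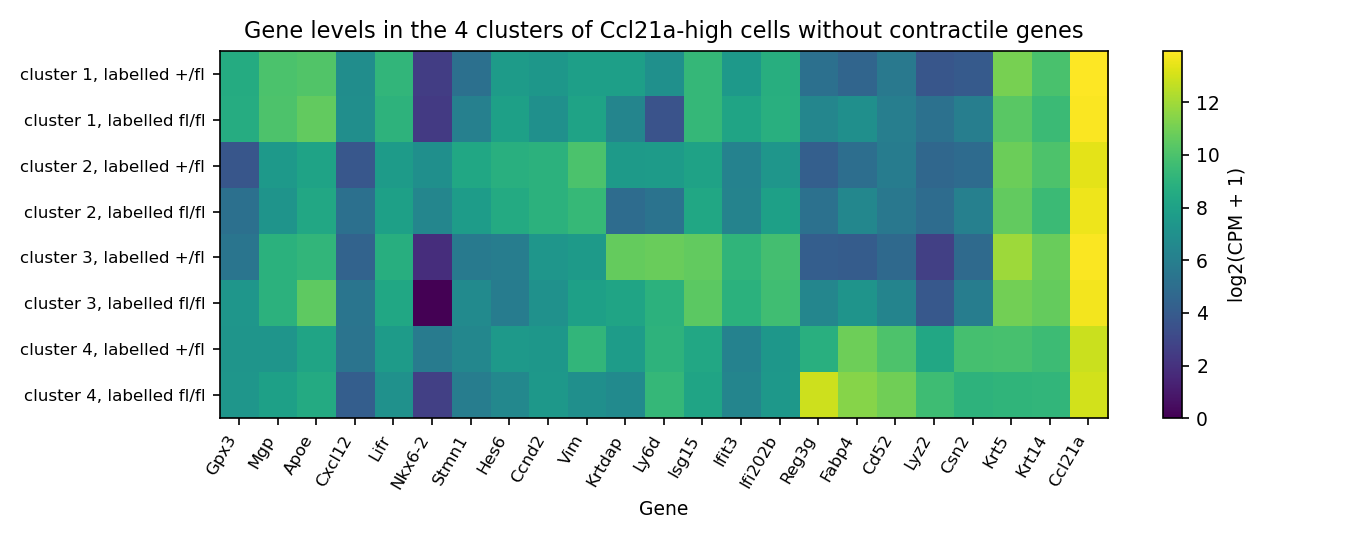
log2(CPM + 1) of 23 genes (columns) in the 4 clusters of the population in each library (rows), by colour. Gpx3 and Mgp are highest in cluster 1, Nkx6-2 and Stmn1 in cluster 2, Krtdap and Isg15 in cluster 3 and Reg3g and Fabp4 in cluster 4, in both libraries.

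Promoters of interferon-stimulated genes are shown because these genes vary together among the cells of the population, and because the marker Ifi202b is itself interferon-inducible. The windows are the 200 bases before the RefSeq start in GRCm38.p6, written 5' to 3' on the strand of the gene, with in capitals, on either strand, each match to GAAA, any 2 bases and GAAA again, a motif of the kind bound by interferon regulatory factors. Isg15 (chr4:156200819-156201018, minus strand) codes for a ubiquitin-like modifier and held 3 overlapping matches.
Isg15: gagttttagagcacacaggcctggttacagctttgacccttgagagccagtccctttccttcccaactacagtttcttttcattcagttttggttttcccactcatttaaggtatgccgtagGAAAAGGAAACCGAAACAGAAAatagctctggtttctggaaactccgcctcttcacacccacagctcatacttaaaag
Ifit1 (chr19:34640689-34640888, plus strand), an RNA-binding restriction factor, held 2 matches, on the opposite strand.
Ifit1: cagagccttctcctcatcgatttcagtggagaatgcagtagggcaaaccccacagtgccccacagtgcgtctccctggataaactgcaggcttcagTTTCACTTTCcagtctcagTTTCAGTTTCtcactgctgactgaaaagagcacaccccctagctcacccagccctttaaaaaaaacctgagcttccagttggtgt
Ifit3 (chr19:34583329-34583528, plus strand), its partner, also held 2 on the opposite strand.
Ifit3: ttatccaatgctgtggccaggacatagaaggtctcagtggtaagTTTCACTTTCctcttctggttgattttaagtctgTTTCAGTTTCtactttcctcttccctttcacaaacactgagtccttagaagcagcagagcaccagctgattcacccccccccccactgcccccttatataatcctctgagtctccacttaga
Ifi202b (chr1:173982845-173983044, minus strand) held 0 matches.
Ifi202b: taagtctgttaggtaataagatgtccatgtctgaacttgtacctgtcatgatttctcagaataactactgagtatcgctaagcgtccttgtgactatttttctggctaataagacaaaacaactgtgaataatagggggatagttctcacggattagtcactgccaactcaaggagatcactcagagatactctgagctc
Ccl21a (chr4:42773992-42774191, minus strand) held 0 matches.
Ccl21a: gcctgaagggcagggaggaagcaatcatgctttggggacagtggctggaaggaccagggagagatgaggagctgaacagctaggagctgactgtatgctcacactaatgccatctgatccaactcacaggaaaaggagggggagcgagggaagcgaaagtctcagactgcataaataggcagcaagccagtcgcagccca

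The motif was present in windows of 716 of 27025 genes (2.65%). It was found in 11 of 23 listed interferon-stimulated genes with a promoter entry (47.8%), in 9 of 12 p200 genes (75%), in 3 of 16 MHC class I genes, in 0 of 11 keratins and in 0 of the 6 markers. For Krt14 and Lifr the RefSeq starts used lie inside the gene spans given above, so their windows do not precede those spans. A match is a description of the letters and no evidence of binding. In the population Isg15 was at 590 CPM (interval 565 to 616) and 520 CPM (interval 495 to 547), Ifit1 at 240 and 215 CPM, and Ifit3 at 191 and 180 CPM. The contractile cells had more of each, with Isg15 at 845 and 793 CPM, and of 32 interferon-stimulated genes measured in that comparison 2 were lower past the fold and 0 higher (Ifit3b and Ifi44; medians -0.34 and -0.35). Within clusters Isg15 was at 622 and 637 CPM in cluster 1, 258 and 318 in cluster 2, 1559 and 1368 in cluster 3 and 331 and 279 in cluster 4. Because the clusters were built from the variable genes of these same cells, this spread between them is description only.

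Between the libraries, 501 of 6676 measured genes (7.5%) were 1.5-fold or more higher in the population labelled fl/fl and 218 (3.27%) lower, with a median log2 ratio of 0.06. Mucosal defence genes stood on the higher side. Reg3g was at 81.4 CPM (interval 72.3 to 91.3, in 45 cells) in the library labelled +/fl and 2033 CPM (interval 1982 to 2084, in 129 cells) in the library labelled fl/fl, 24.98-fold higher (interval 22.2 to 28.2). In each library 1 cell held a large part of its UMIs, 29.3% labelled +/fl and 27.5% labelled fl/fl. With cells thinned to equal depth as above, Reg3g was seen in 4.17% and 18.3% of the population's cells. Among T-lineage cells, which should lack it, the thinned shares were nearly the same, 3.39% and 17.5%. Its summed level in T-lineage cells, without thinning, was 17.4 and 113 CPM. Complement component C3 was at 76.3 CPM (interval 67.5 to 86.0) and 227 CPM (interval 210 to 245), 2.98-fold higher. Saa3, an acute-phase serum amyloid gene, was at 5.61 CPM in 9 cells and 180 CPM in 68 cells. Of 14 complement and mucosal defence genes 12 were higher and 1 lower, with a median of 3.90. The lower one was Clu, the secreted chaperone clusterin, at 805 and 435 CPM.

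The size of these differences, though not the direction of Reg3g, C3 and Saa3, depended on cluster 4, which had 16 cells from one library (labelled +/fl) and 65 from the other. Without its cells the median over the same 14 genes was 0.84, with 10 higher and 1 lower, and it was 0.08 over the 6 list genes that still passed the limits on low values. C3 was then at 76.8 and 154 CPM, Reg3g was at 19.7 and 60.02 CPM, and Fabp4, at 293 and 792 CPM with all cells, was at 26.6 and 111 CPM. Over all genes 371 of 6464 were then higher (5.74%) and 266 lower (4.12%), and 223 and 159 of these were among the genes called with all cells. Reg3g was also higher in the library labelled fl/fl outside the population, at 513 and 2061 CPM in cells under the Ccl21a limit. Whether RNA released from those cells takes part in the difference was not tested.

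Against the contractile cells, leaving out cluster 4 shortened the higher side more than the lower. Only 61 of 6717 genes (0.908%) were then higher and 76 (1.13%) lower in the population, 50 and 67 of them shared with the full calls. By construction this removes the leading genes of cluster 4 from the population while contractile cells keep theirs. Ccnd2 (365 and 313 CPM), Bok, Stmn1 (211 and 144 CPM) and Vim (709 and 454.5 CPM against 377 and 264) were on the higher side, together with Nkx6-2, at 75.5 and 42.4 CPM against 32.0 and 13.8. Mgp (372 and 514.5 CPM), Apoe (471 and 921 CPM), Sparc, Igfbp2 and Scx were on the lower side. Cldn7 in the library labelled fl/fl turned, and its log2 ratio to contractile cells was -0.74 without cluster 4.

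**Figure D5:**
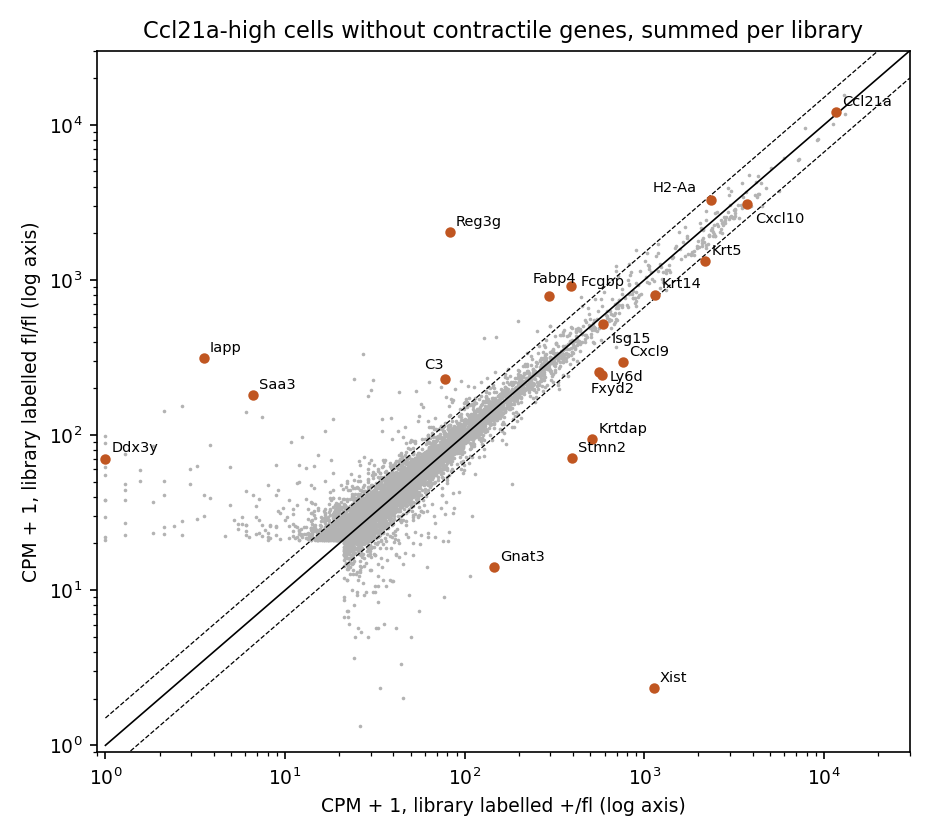
CPM + 1 of each measured gene in the population of the library labelled +/fl (x axis, log) and of the library labelled fl/fl (y axis, log), with equality as a solid line and 1.5-fold as dashed lines. Named genes are coloured. Reg3g, Fabp4 and C3 lie above the dashed lines, Stmn2, Krtdap, Gnat3 and Cxcl9 below, and Ccl21a and Krt14 between them.

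Of 11 keratinocyte and cornified genes 2 were lower (Krtdap and Ly6d) and 3 higher (Sprr1a, 13.5 and 62.0 CPM, Sprr2a3, 33.7 and 106 CPM, and Spink5, 11.5 and 95.5 CPM), with a median of -0.09. Krtdap, a secreted protein of differentiating keratinocytes, was at 512 and 93.2 CPM, 5.50-fold lower in the library labelled fl/fl, and at 563 and 90.7 CPM without cluster 4. Within cluster 3, which it led, it was at 1641 and 286 CPM. Ly6d was at 577 and 242 CPM, and at 587 and 110 CPM without cluster 4. Stmn2, a microtubule regulator best known in neurons, was at 393 and 69.7 CPM. In the contractile cells Krtdap was at 852 and 176.5 CPM and Stmn2 at 526 and 141 CPM, so both directions were the same there.

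Gnat3, the taste G protein of tuft cells, was at 144.5 CPM in 26 cells and 13.1 CPM in 12 cells, and Rgs13 was at 106 and 11.4 CPM. Of 8 measured tuft markers 8 were lower past the fold (median -2.18), and their summed level was 565 and 121 CPM in the population against 3211 and 796 CPM in cells under the Ccl21a limit. The rule had removed cells rich in 3 tuft genes but not those with a few UMIs. These genes, Trpm5, Dclk1 and Alox5ap, belong to the tuft marker list. The count and the population's sum thus include genes limited by the rule and are description only. The summed tuft level was thus lower in the library labelled fl/fl both in the population and in cells under the Ccl21a limit. In contractile cells, held to the same tuft limit, it was 234 and 164 CPM, a smaller difference. There Gnat3 went the other way, at 9.94 and 16.4 CPM, while Rgs13 kept its direction, at 32.35 and 13.6 CPM. The part of RNA from tuft cells in these values was not tested.

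More inflammatory chemokines were lower than higher in the library labelled fl/fl. Cxcl9, an interferon-gamma-induced chemokine, was at 759 CPM (interval 731 to 788) and 295 CPM (interval 275 to 315), 2.58-fold lower, while the related Cxcl10 was at 3718 and 3086 CPM. Ccl5 was at 168 and 86.1 CPM. Of 12 inflammatory chemokines 5 were lower (Ccl5, Ccl7, Ccl9, Ccl22 and Cxcl9) and 1 higher (Cxcl2, 61.4 and 122 CPM), with a median of -0.27. Il7, the survival cytokine for thymocytes, was at 331 CPM (interval 312 to 350) and 218 CPM (interval 202 to 236), and it was higher in the contractile cells of each library at 405 and 274 CPM. Flt3l, the dendritic cell growth factor, was at 28.6 and 12.4 CPM. These 2 were the only ones of 6 growth factor genes past the fold, with 0 higher.

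Among keratins, Krt5 was 1.66-fold lower and Krt19 1.87-fold lower in the library labelled fl/fl (57.5 and 30.8 CPM for Krt19), and 0 of 8 were higher. Krt17 was at 5594 and 3746 CPM, just inside the fold, whereas Krt8 (1582 and 1580 CPM) and Krt18 (2071 and 2172 CPM) were level. The Krt5 direction held in each cluster, with 2166 and 1357 CPM in cluster 1, 1833 and 1573 in cluster 2, 3882 and 2043 in cluster 3, and 957 and 554.5 in cluster 4. In contractile cells Krt5 had the same direction, at 2856 and 1552 CPM. Krt19 went the other way there, at 11.43 and 22.03 CPM. Without cluster 4, Krt19 was at 63.65 and 15.8 CPM in the population. Those UMIs came from only 18 and 15 cells, with 52 of 194 and 8 of 35 in 1 cell.

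Antigen presentation and interferon lists were less apart. In the library labelled fl/fl each of 11 MHC class II genes was at a higher level (median 0.42), and 1 of them, H2-Oa, was past the fold at 84.4 and 161.5 CPM. H2-Aa was at 2346 and 3255 CPM in the population, at 2195 and 4748 CPM in cells under the Ccl21a limit and at 458 and 1163 CPM in T-lineage cells, which should lack it. The part of free RNA in the class II values was not tested. Without cluster 4 the class II median was 0.23. Of 31 interferon-stimulated genes 2 were higher (Isg20 and Zbp1) and 0 lower, with a median of 0.20, and of 19 MHC class I genes 0 were past the fold, with a median of 0.23.

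With all cells of the population kept, regulators of thymic epithelium had the same level or nearly so in both libraries. Of 21 measured, 0 were past the fold (median 0.12), with Foxn1, the master regulator of thymic epithelium, at 34.0 and 35.5 CPM. Without the Reg3g-led cluster, 3 of the same 21 genes were higher and 1 lower in the library labelled fl/fl (median 0.04). Of 22 NF-kB genes 2 were higher with all cells (Map3k14, 16.6 and 30.8 CPM, and Traf1, 34.2 and 62.0 CPM) and 0 lower, and Relb was at 150 and 152 CPM. Of 13 gp130 and cytokine receptor genes 1 was higher, Il1r1, at 19.9 and 43.9 CPM. Of 20 survival and death genes 3 were higher and 0 lower. They were the p53-induced genes Mdm2 (81.1 and 131 CPM), Ccng1 (31.7 and 48.3 CPM) and Pmaip1 (29.5 and 46.9 CPM), and the list's median was 0.09. These 3 calls depended on the Reg3g-led cluster. Without it, 0 of the same 20 genes were higher and 2 lower in the library labelled fl/fl (median 0.07).

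The most extreme ratios again came from few cells. Klk1b26 and Klk1b9, kallikreins with near-identical relatives, were at 0 CPM in the library labelled +/fl and at 97.9 and 88.5 CPM in 18 and 11 cells labelled fl/fl. Against a floor of 3 UMIs in the library labelled +/fl they were at least 116-fold and 105-fold higher, and the exact intervals of the ratios began at 93.9 and 84.9. Cluster 4 held nearly all of these UMIs: without it Klk1b26 had 10 UMIs and Klk1b9 had 0. Iapp, the islet amyloid hormone, was at 2.52 and 313 CPM, with 88.6% of the latter in 1 cell. The other genes named by size were Prap1, Klk1b11, Scgb1a1, Spink1, Mt4, Sftpa1 and S100a9 on the higher side and Cryba2, Gpx6, Gast, Gnb3, Lrmp, Mctp1, Gng13 and Atp2a3 on the lower.

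When only the genes seen in at least 30% of cells were kept here too, 4400 were measured and 119 were higher and 75 lower. Gm8113, an unnamed gene model, stood out among them at 23.3 and 228 CPM (9.79-fold), at 21.98 and 271 CPM without cluster 4, and at 10.1 and 208.5 CPM in contractile cells. Ahcyl2 was at 52.8 and 191 CPM, Alas1, which starts haem synthesis, at 56.1 and 157 CPM, and Txnip, an inhibitor of thioredoxin, at 57.8 and 150.5 CPM. In contractile cells Ahcyl2 was at 43.3 and 53.6 CPM, Alas1 at 46.45 and 58.75 CPM, and Txnip at 88.7 and 139.9 CPM. Under the alternatives described below, the log2 ratio by library was as low as 0.057 for Ahcyl2 (1.84 in the main setting). The lowest was 0.22 for Alas1 (main 1.47) and 0.84 for Txnip (main 1.365). On the lower side Plk2 was at 85.9 and 32.8 CPM and Ptpn18 at 76.9 and 29.8 CPM.

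Markers of other cell types that the sort could hold differed in level. The summed level of 12 T-lineage markers was 66.2 and 26.5 CPM in the population, with 0 and 2 of them at 0, against 9711 and 7553 CPM in T-lineage cells. Endothelial markers summed to 11.2 and 5.70 CPM (3 and 2 of 7 at 0), B-lineage markers to 19.1 and 19.4 CPM (2 and 0 of 5 at 0) and mesenchymal markers to 68.7 and 36.2 CPM (1 and 1 of 8 at 0), the last limited by the rule. Myeloid and dendritic markers summed to 144 and 295 CPM. Pericyte markers summed to 793 and 816 CPM, above contractile cells (562 and 522 CPM) and cells under the Ccl21a limit (427.5 and 417 CPM). Most of that was Rgs5, at 725 and 739 CPM, while the defining pericyte genes Pdgfrb and Cspg4 were at 1.40 and 1.005 CPM and at 0.561 and 2.68 CPM. Cortical epithelial markers summed to 949 and 844.5 CPM, against 567 and 989.5 CPM in cells under the Ccl21a limit, most of it Tbata (674 and 590 CPM), with Psmb11, the defining cortical proteasome subunit, at 11.8 and 7.37 CPM. Epcam was at 1063 and 1168 CPM in the population and 19.2 and 9.43 CPM in T-lineage cells. The T-lineage cells were chosen by their T-lineage markers and low Epcam, so both contrasts with them were set by that choice.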

How the data were processed

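The authors deposited raw UMI counts per gene and barcode for both libraries, as filtered matrices. The submitters' processing notes list Cell Ranger and Seurat without versions. Per the file headers the software version was 3.1.0. The build used for counting is not given in the sources at hand. Positions were looked up by Ensembl identifier in GENCODE M21 (GRCm38).

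The deposited counts were read with Python 3.11.15, numpy 2.4.6, scipy 1.17.1, pandas 2.3.3 and scanpy 1.11.5. Counts were summed over cells of each class and library and divided by the class total (CPM). Log2 ratios used CPM + 1. Fold intervals are exact binomial. Named genes were the 12 highest and 12 lowest ratios among genes with at least 50 CPM (sex-linked and rule genes apart) and members of 34 gene lists and 20 marker lists. Members and lists were chosen with earlier results of these data known. Clusters came from Leiden (leidenalg 0.10.2, resolution 0.4) on 2000 variable genes, 20 components and 15 neighbours, seed 1. T-lineage cells had T-lineage markers at 10 or more and Epcam under 1 per 10000 UMIs, and Ccl21a under its limit (69 and 96 cells). The scripts were tested on simulated data.

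Doublets were not removed: Scrublet's own threshold marked 2 of 5099 and 0 of 8208 cells, so it did not work here. Free RNA was not corrected. Alternatives were other limits of the rule, stricter quality limits, thinning to 4000 UMIs, removal of high Scrublet scores, TMM factors (edgeR 4.0.16, R 4.3.3), another pseudocount, no lower limit, other totals and per-cell means, and, chosen after seeing the data, leaving out each gene's top cell, cluster 4 or tuft cells.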

Additional observations from a re-analysis of the deposited data

Results flagged for a closer look

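Against contractile Ccl21a-high cells, 2 genes stood on opposite sides in the libraries. Ccl20, a chemokine of microfold cells, was at 28.3 CPM in the population and 5.79 CPM in contractile cells of the library labelled +/fl, and, labelled fl/fl, at 31.8 against 89.2 CPM. The log2 ratios were 2.11 and -1.46, a difference of -3.57, and 1 cell held 45 of 101 and 37 of 95 of the UMIs in the population. Cdkn1c, the cell-cycle inhibitor p57, was at 156 against 235.5 CPM in the library labelled +/fl and at 183 against 51.7 CPM in the library labelled fl/fl. Its ratios were -0.59 and 1.80, a difference of 2.39, with 121 of 557 and 259 of 546 UMIs in 1 cell. With 1 library per genotype the difference was not tested for either gene.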

How the results depend on the processing

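Other limits change which cells are members, so values move by construction. With the Ccl21a limit at 100, at 25, the contractile limit at 2 and at 10, the share of cells passed was 2.51%, 6.69%, 2.33% and 8.002% labelled +/fl and 2.498%, 6.56%, 2.48% and 6.96% labelled fl/fl. The share of Ccl21a-high cells was 14.99%, 25.1%, 10.2% and 35.1% labelled +/fl, and 18.5%, 29.1%, 13.2% and 36.9% labelled fl/fl. Tuft cells left out of the total gave 7.64% of cells labelled +/fl. Thinning to 4000 UMIs gave 17.2% (+/fl) and 19.8% (fl/fl) of Ccl21a-high cells and 3.90% of cells passed labelled fl/fl. By library, 839 genes were higher and 360 lower at contractile limit 2, and 2933 and 1661 with no lower limit on counts. Against contractile cells 109 were higher and 61 lower at Ccl21a limit 100, 726 and 316 at 25, 929 and 285 with no lower limit, and 61 and 76 without cluster 4, while 231 were lower at contractile limit 2.

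Without cluster 4, log2 ratios to contractile cells turned in both libraries for Cd52 (-0.46, -1.50), Nts (-0.67, -0.28), Aoc1 (-0.80, -0.44), Car8 (-1.93, -1.45), Rptn (-0.018, -1.41), Gsta2 (-0.76, -1.61) and Klk1 (-0.92, -1.99). They turned labelled fl/fl for Gast (-0.97), Cldn7 (-0.74), Vmo1 (-0.60), Laptm5 (-0.044), 2210407C18Rik (-1.66), Skint9 (-0.56), Ang4 (-0.89), Fabp4 (-1.26), Csn2 (-0.40) and the complement (-0.86) and Aire-induced (-0.40) list medians. Wfdc2 by library was then -0.54, and only 2 Aire-induced genes passed the limits on low values by library, too few for a median. At Ccl21a limit 100, Aoc1 (-0.21), 2210407C18Rik (-0.49), Car8 (-0.24), Rptn (-0.14), Skint9 (-0.19), Gsta2 (-0.71), Fabp4 (-0.038) and Klk1 (-0.63) turned labelled +/fl and Ang4 (-0.80) labelled fl/fl. By library Cryba2 and Gast turned at Ccl21a limit 100 (0.44, 3.92) and contractile limit 2 (0.26, 4.61), and Gast as a mean of per-cell CPM (1.20). Gast to contractile cells was -0.20 labelled +/fl at contractile limit 2, and -0.36 labelled fl/fl without its top cell. Nts labelled +/fl was -0.67 at contractile limit 2, -0.69 without high Scrublet scores, -0.37 without its top cell and -4.19 thinned to 4000 UMIs (fl/fl -1.25). Klk1 labelled +/fl was -0.15 under stricter quality limits. For turns outside changed membership or a left-out cell, the cause was not tested. TMM factors turned none of the 45 ratios by library or 92 to contractile cells.

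No paired analysis was possible because each genotype has 1 library. Genes with fewer than 50 UMIs were not measured here, which limits genes expressed in few cells.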
